A study of Mus musculus with 8 samples.

Results

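The transcripts of 8 transcription factor genes of the granulocyte and monocyte lineages were followed across 4 sorted populations of mouse common myeloid progenitors. They are the C/EBP family genes Cebpa, Cebpb, Cebpd, Cebpe and Cebpg, the PU.1 gene Spi1, and Gfi1 and Klf4. The 8 genes were chosen by name from 24411 genes in the deposited tables, though earlier results of these data were known. All 8 had enough counts to be tested, as did 13177 genes in all.

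All cells were KIT+ and CD16/32-, sorted from the marrow of C57BL/6 mice of wild type genotype, and the labels name no treatment. CD34bright cells were CD41+ CD9+. CD48dim and CD48bright cells were both CD34dim, CD41+ and CD9+, and were divided by CD48. CD41/CD9-negative cells were CD34dim, CD41- and CD9-. Each population had 2 libraries. Whether a pair came from different animals is not stated, so p-values reflect how far these libraries vary, in part perhaps technically.

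C/EBP proteins are basic leucine zipper factors that bind DNA as dimers with one another. C/EBP alpha is required for the step from common myeloid to granulocyte-monocyte progenitors, C/EBP epsilon acts later in granule formation in neutrophils, and C/EBP beta drives emergency granulopoiesis. C/EBP gamma lacks the activation domain of the other members and can hold them in dimers. PU.1 is an ETS factor needed for myeloid and B cells, and opposes the erythroid factor GATA1. GFI1 is a zinc finger repressor that favours neutrophils over monocytes, and KLF4 is a zinc finger factor that promotes monocyte differentiation.

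The promoters of the genes that passed the test in at least 1 comparison, Cebpa, Cebpg and Klf4, are shown here so that the letters upstream of these starts can be read beside the levels that follow. Each sequence is the 250 bases before the RefSeq start on build GRCm38.p6, the same assembly as mm10, written 5′ to 3′ on the gene's own strand. They are Cebpa at chr7:35119043-35119292 (plus strand), Cebpg at chr7:35056567-35056816 (minus strand) and Klf4 at chr4:55532476-55532725 (minus strand). Capitals mark matches to the searched letters.
Cebpa: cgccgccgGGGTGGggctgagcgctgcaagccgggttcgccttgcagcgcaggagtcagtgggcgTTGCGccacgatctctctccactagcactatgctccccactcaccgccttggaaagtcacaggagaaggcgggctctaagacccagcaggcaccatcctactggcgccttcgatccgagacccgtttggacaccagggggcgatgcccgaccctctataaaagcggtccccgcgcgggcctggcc
Cebpg: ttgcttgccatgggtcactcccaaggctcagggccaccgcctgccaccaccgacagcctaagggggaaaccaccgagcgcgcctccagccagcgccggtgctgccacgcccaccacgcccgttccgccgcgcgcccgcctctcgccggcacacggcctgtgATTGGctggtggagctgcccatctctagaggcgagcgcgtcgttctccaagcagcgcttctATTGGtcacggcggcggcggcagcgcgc
Klf4: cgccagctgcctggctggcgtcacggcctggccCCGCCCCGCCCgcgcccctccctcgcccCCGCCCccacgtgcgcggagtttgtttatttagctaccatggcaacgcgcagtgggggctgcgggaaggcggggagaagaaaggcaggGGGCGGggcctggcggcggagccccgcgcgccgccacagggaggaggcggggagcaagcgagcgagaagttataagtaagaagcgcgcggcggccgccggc

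The search covered 7 motifs on both strands: TTGCG (a C/EBP core), GAGGAA (the PU.1 core), AAATCA (the GFI1 core), AGATAA (the GATA core), CCACCC (the CACCC box), CCAAT (the CCAAT box) and GGGCGG (the GC box). The Cebpa window held TTGCG 185 bases before the start, a match that 14.5% of 32851 mouse promoter windows of this length hold, and CCACCC on the other strand 242 bases before it, held by 28.1%. The Cebpg window held CCAAT on the other strand at 89 and 28 bases before the start, and 33.9% of windows hold this box. The Klf4 window held 4 matches to GGGCGG, the first 2 of which overlap, and 32.7% of windows hold at least 1. These matches describe letters only, and the series measured no binding. Of the 8 genes, 5 had an entry in the promoter table, and Cebpd, Cebpe and Spi1 had none.

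The libraries held 7237585 to 20632001 expected counts, the fewest in CD48dim replicate 2. The 2 CD48dim libraries resembled each other less (Spearman 0.836 across genes) than those of the other populations (0.954 to 0.976). CD48dim replicate 2 also had Malat1, a nuclear RNA, at 38950 CPM (counts relative to the library total, scaled by TMM), against 5004 to 14870 CPM in the other 7. In every population replicate 2 had fewer counts than replicate 1. Malat1 lay at 11380 to 38950 CPM in the replicate 2 libraries and at 5004 to 10330 CPM in the replicate 1 libraries. Ribosomal protein genes took 2.29% to 5.86% of the counts in replicate 2 and 6.22% to 9.15% in replicate 1. The 9 genes of the sort markers and progenitors were read in every library. Itga2b (CD41) lay at 2.18 to 2.83 CPM in CD41/CD9-negative cells against 64.3 to 155 CPM elsewhere, and Cd48 at 16.9 and 35.8 CPM in CD48dim against 157 to 246 CPM elsewhere. Of these 9 genes, 3 differed among the 4 populations, where 2.44% of all genes did. They were Itga2b, Flt3 and Cd48 (adjusted p = 0.002445, 0.00436 and 0.0214, edgeR). Cd34 and Cd9, also used in the sort, did not pass the test among the 4 populations (adjusted p = 0.241 and 0.170, edgeR). In sorted bulk samples, fewer cells of a type and less RNA per cell cannot be told apart.

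Of the 8 genes 2, Cebpa and Klf4, differed among the 4 populations at an adjusted p below 0.05 (edgeR quasi-likelihood F-test, Benjamini-Hochberg over 13177 genes), where 2.44% of all genes did. Their orders across the populations were not alike: Cebpa was highest in CD34bright cells and lowest in CD48dim cells, and Klf4 was highest in CD41/CD9-negative cells and lowest in CD48dim cells. Cebpg and Gfi1 passed an unadjusted threshold of 0.05, as did 16.8% of all genes, and the other 4 did not. Comparisons below share libraries and are not independent of one another.

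**Figure D1:**
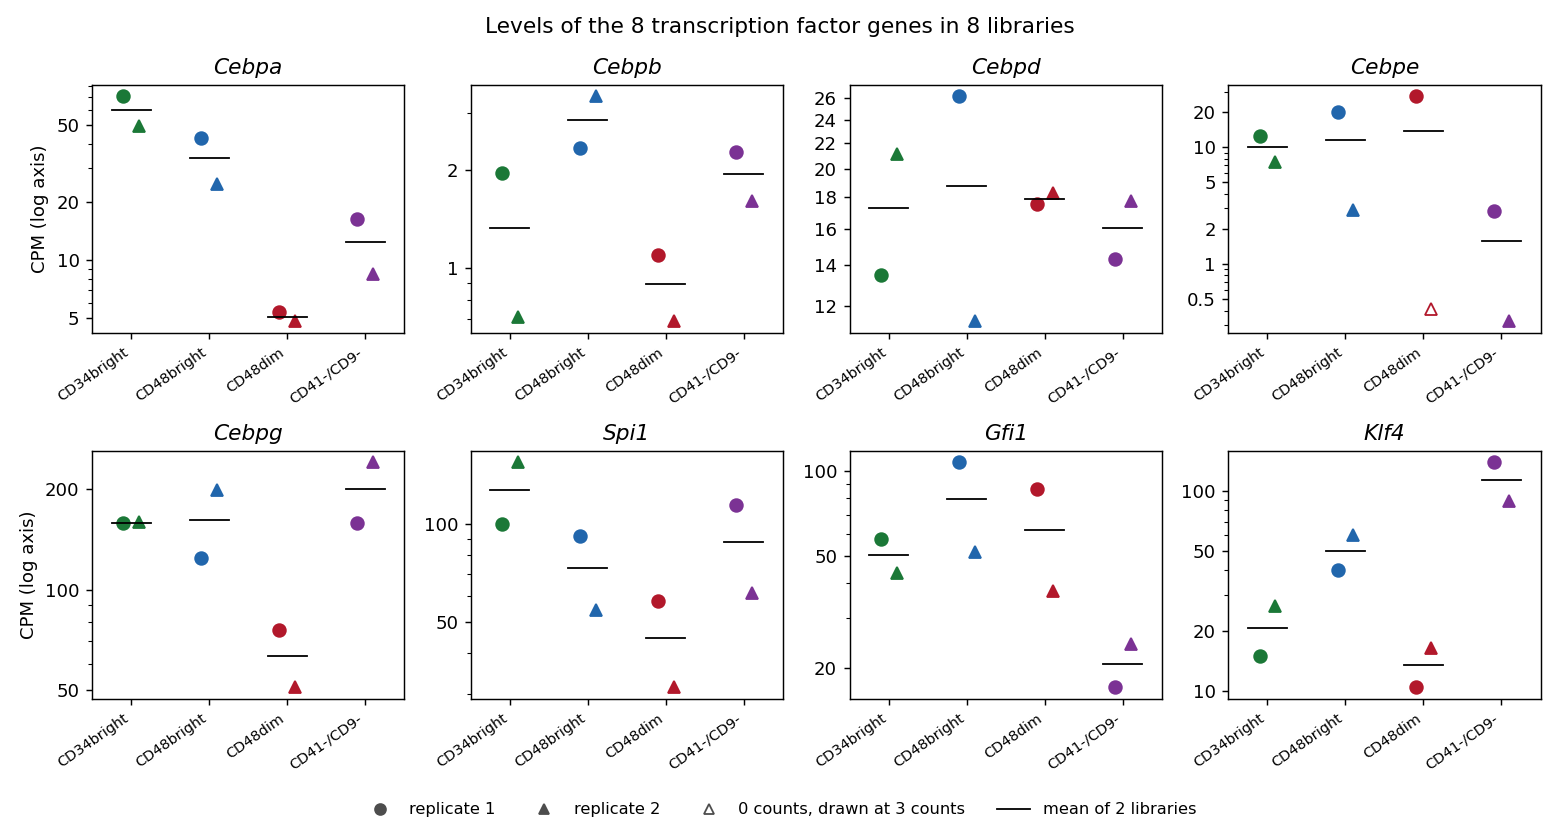
Levels of the 8 genes in CPM (log axes of differing range) in each of the 8 libraries, with circles for replicate 1, triangles for replicate 2 and a bar for the mean of 2. Cebpa runs from 70.9 CPM in CD34bright replicate 1 down to 4.81 CPM in CD48dim replicate 2 with no overlap between populations, and Klf4 runs from 10.4 CPM in CD48dim replicate 1 up to 139 CPM in CD41/CD9-negative replicate 1.

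Cebpa (chromosome 7, 35119293 to 35121928, GRCm38.p6), the gene of the factor that opens the granulocyte-monocyte programme, was read at 70.9 and 49.7 CPM in CD34bright cells and at 43.2 and 24.9 CPM in CD48bright cells. It lay at 16.3 and 8.48 CPM in CD41/CD9-negative cells and at 5.36 and 4.81 CPM in CD48dim cells. No library of one population fell within the range of another, a pattern that 3.37% of all tested genes share and that no other of the 8 genes showed. The adjusted p among the 4 populations was 0.0241.

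CD34bright cells had 11.8-fold the Cebpa level of CD48dim cells, 60.3 ± 15.0 against 5.08 ± 0.388 CPM (SD, n = 2 libraries each). The log2 fold change was 3.56 ± 0.54 (SE; adjusted p = 0.0374, edgeR), with a 95% interval of 2.35 to 4.77. In this comparison Cebpa alone of the 8 genes was called, and 0.577% of all genes were called, 0.364% as higher in CD34bright cells. Unadjusted, 3 of the 8 passed 0.05, against 19% of all genes. The call was lost with limma-voom (adjusted p = 0.0567), in a fit of the 4 compared libraries alone (0.262), and without CD34bright replicate 1 (0.221) or 2 (0.120) or CD41/CD9-negative replicate 1 (0.0712) or 2 (0.0722). The log2 fold change stayed between 3.29 and 3.86 when single libraries were left out.

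A further 3 Cebpa differences missed the threshold in the same edgeR fit. CD48bright cells lay 2.74 ± 0.52 above CD48dim cells on the log2 scale (adjusted p = 0.0769). This was called in 5 of 15 alternative fits and not in 10. Among the 5 were the replicate number as a block (adjusted p = 0.0273), DESeq2 (7.49e-05) and no filter on low counts (0.000338). CD34bright cells lay 2.28 ± 0.51 above CD41/CD9-negative cells (adjusted p = 0.0930). This was called in 7 of 16 alternative fits and not in 9. Among the 7 were the block (adjusted p = 0.0239), DESeq2 (0.000962) and the compared libraries alone (0.000679). CD41/CD9-negative cells lay 1.46 ± 0.49 below CD48bright cells (adjusted p = 0.430). The neighbours in the order, CD34bright and CD48bright, differed by 0.82 ± 0.48 (adjusted p = 1, interval -0.26 to 1.91), and CD41/CD9-negative and CD48dim by 1.28 ± 0.50 (adjusted p = 0.203, interval 0.15 to 2.41). None of the neighbouring pairs therefore differed beyond the spread after adjustment.

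The difference of Cebpa among the 4 populations lost its call without CD34bright replicate 1 (adjusted p = 0.119) or 2 (0.0556), and without CD41/CD9-negative replicate 1 (0.0728) or 2 (0.0774). Without one or the other CD48dim library it held, at 0.00145 and 0.00176, and without both it held at 0.0198 (edgeR). The fit without both compares the other 3 populations only.

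Cebpg (chromosome 7, 35046422 to 35056566) lies beside Cebpa on the same chromosome and was the most abundant C/EBP transcript per length in 7 of the 8 libraries. The gene overlaps Gm45095, which is not used here. It was read at 158 and 159 CPM in CD34bright cells, 124 and 198 CPM in CD48bright cells, 158 and 241 CPM in CD41/CD9-negative cells, and 75.8 and 51.0 CPM in CD48dim cells. Both CD48dim libraries lay below all 6 others, and the other 3 populations overlapped. Among the 4 populations Cebpg had an adjusted p of 0.141 (edgeR), and it was called with DESeq2 (0.0132) and by edgeR with no filter on low counts (0.0111).

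CD41/CD9-negative cells had 3.15-fold the Cebpg level of CD48dim cells, 199.7 ± 58.3 against 63.4 ± 17.5 CPM. The log2 fold change was 1.65 ± 0.38 (adjusted p = 0.0460, edgeR; interval 0.80 to 2.51). Cebpg and Klf4 were the 2 genes called here, both higher in CD41/CD9-negative cells, where 4.02% of all genes were called, 1.98% as higher and 2.04% as lower. Unadjusted, 4 of the 8 passed 0.05, and 19.5% of all genes did. The Cebpg call was close to the threshold: it was lost with the 4 compared libraries alone (adjusted p = 0.178), without CD41/CD9-negative replicate 1 (0.123) or 2 (0.320), without CD34bright replicate 1 (0.0889) or 2 (0.0895), and without CD48bright replicate 1 (0.0617) or 2 (0.0638). CD34bright and CD48bright cells lay 1.32 ± 0.38 (adjusted p = 0.127) and 1.35 ± 0.38 (adjusted p = 0.176) above CD48dim cells and were not called. Both differences were called with DESeq2 (adjusted p = 0.02255 and 0.0283) and by edgeR with no filter on low counts (0.0277 and 0.0356).

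Cebpe (chromosome 14, 54710363 to 54712174), the late granulocytic member, varied widely between the replicates of a population. It was read at 12.6 and 7.53 CPM in CD34bright cells, 20.2 and 2.93 CPM in CD48bright cells and 2.83 and 0.323 CPM in CD41/CD9-negative cells. In CD48dim cells, replicate 1 held 373 counts (27.4 CPM), the highest level of all 8 libraries, and replicate 2 held 0 counts, which allows a level of up to 0.412 CPM (3 counts, counting error only). Replicate 2 was the lower library in each of the 4 populations, and in each it also had fewer total counts and more Malat1. What part this had in the Cebpe values was not tested.

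None of the Cebpe differences passed the test (adjusted p = 0.765 among the 4 populations, edgeR), and their standard errors were 1.66 to 1.83 on the log2 scale. CD41/CD9-negative cells lay 3.12 ± 1.83 below CD48dim cells (adjusted p = 0.389) and 2.87 ± 1.81 below CD48bright cells (adjusted p = 0.930). Cebpe in CD41/CD9-negative against CD48dim cells was called by edgeR with no filter on low counts (-3.12, adjusted p = 0.0100) and without CD48dim replicate 2 (-4.10, adjusted p = 0.0194). The difference of Cebpe among the populations was called with no filter (adjusted p = 0.0494), and that of CD34bright above CD41/CD9-negative cells with the compared libraries alone (2.66, adjusted p = 0.0462). Without CD48dim replicate 1 the difference among the populations was called (adjusted p = 0.0207), with CD48dim then represented by the library at 0 counts.

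**Figure D2:**
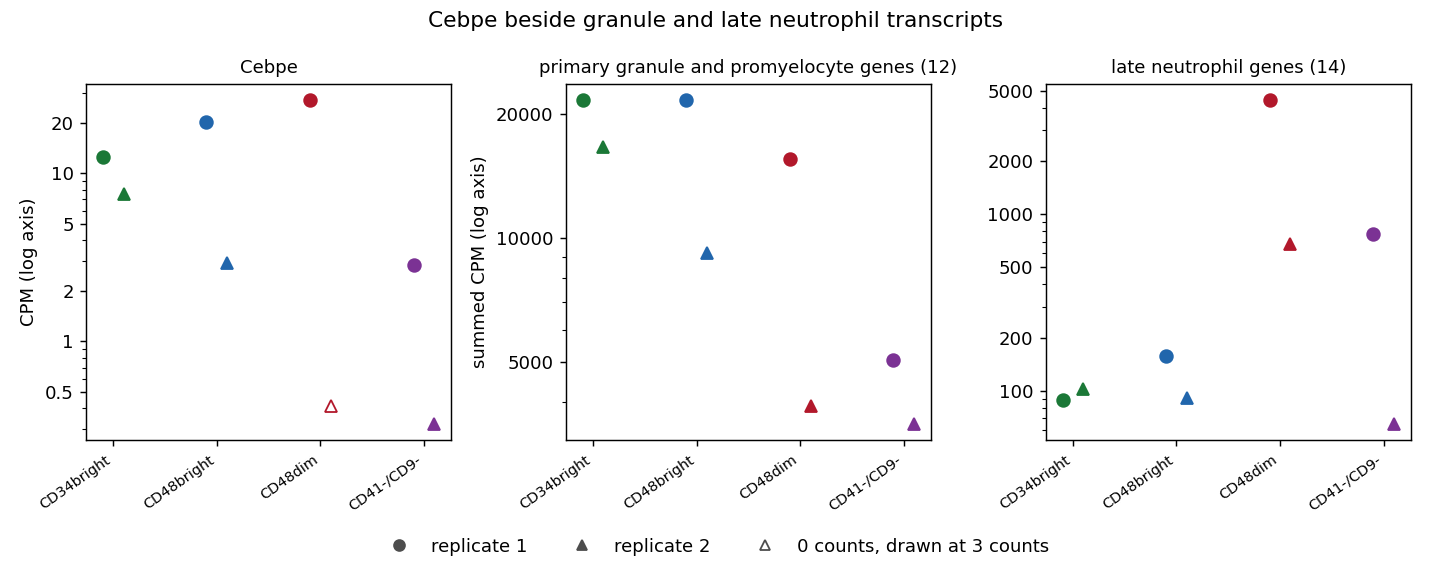
Cebpe in CPM beside the summed CPM of 12 primary granule and promyelocyte genes and of 14 late neutrophil genes in the 8 libraries, all on log axes, with replicate 1 as circles and replicate 2 as triangles. CD48dim replicate 1 is the highest library for Cebpe (27.4 CPM) and for the late neutrophil genes (4433 CPM), and replicate 2 lies below replicate 1 for the primary granule genes in all 4 populations.

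Genes of the neutrophil programme that C/EBP factors are known to activate were read beside it. The 12 primary granule and promyelocyte genes summed to 21610 and 16650 CPM in CD34bright cells, 21540 and 9188 CPM in CD48bright cells, 15530 and 3908 CPM in CD48dim cells, and 5062 and 3544 CPM in CD41/CD9-negative cells. As with Cebpe, replicate 2 was lower in every population. None of the 12 passed the test among the 4 populations, and 1 of them, Elane (neutrophil elastase), fell in CD41/CD9-negative against CD48dim cells, by 2.83 ± 0.62 on the log2 scale (adjusted p = 0.0376, edgeR).

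The 14 late neutrophil genes, markers of cells that a KIT+ gate should hold few of, had a sum of 4433 CPM in CD48dim replicate 1 and of 679.6 CPM in replicate 2. They summed to 776 and 64.9 CPM in CD41/CD9-negative cells and to 88.5 to 158 CPM in CD34bright and CD48bright cells. No gene of this list was at 0 in any library except 2 in CD41/CD9-negative replicate 2. One of the 14, the calprotectin subunit gene S100a8, differed among the populations (adjusted p = 0.0434, edgeR), with 989.6 and 190.5 CPM in CD48dim cells and 9.44 to 125 CPM elsewhere. The part of such cells in the Cebpe values was not tested. The 6 red cell genes had a sum of 246 CPM in CD48dim replicate 1 and of 4.74 to 35.9 CPM elsewhere, and none was called.

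Cebpb (chromosome 2, 167688915 to 167690432), the member linked to emergency granulopoiesis, was read at low levels. It was read at 1.96 and 0.711 CPM in CD34bright cells, 1.10 and 0.687 CPM in CD48dim cells, 2.34 and 3.38 CPM in CD48bright cells, and 2.28 and 1.62 CPM in CD41/CD9-negative cells, from 5 to 45 counts per library. Both CD48bright libraries lay above all others, but no difference passed the test (adjusted p = 0.841 among the 4 populations, edgeR). The standard errors of its log2 fold changes, 1.13 to 1.17, leave changes of several fold undetectable.

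Cebpd (chromosome 16, 15887286 to 15889545), which responds to inflammatory and growth arrest signals, was the most even of the 8. Its levels were 13.5 and 21.2 CPM in CD34bright cells, 26.2 and 11.3 CPM in CD48bright cells, 17.5 and 18.3 CPM in CD48dim cells, and 14.3 and 17.8 CPM in CD41/CD9-negative cells. The populations overlapped throughout (adjusted p = 0.997, edgeR), and the 6 pairwise log2 differences lay between -0.23 and 0.11 with standard errors of 0.55. The intervals of these differences reached from -1.46 to 1.34, so changes of up to about that size could not be seen. The gene overlaps Spidr, which had 5331 counts over the 8 libraries against 1961 for Cebpd, and the libraries carry no strand, so its level is uncertain.

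On the deposited TPM scale (an abundance per length), the make-up of the C/EBP transcripts is given here as a description, with no test. Cebpa took 34.4% and 27.6% of the summed C/EBP TPM in CD34bright cells, 22.2% and 15.7% in CD48bright cells, 12.6% and 5.21% in CD41/CD9-negative cells, and 3.98% and 8.72% in CD48dim cells. The shares of CD34bright and CD48bright cells lay above those of the other populations, and CD41/CD9-negative and CD48dim cells overlapped. Cebpg took 65.6% and 79.5% in CD41/CD9-negative cells and 30.2% to 67.3% in the other 6 libraries.

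Cebpe was the leading member in 1 library, CD48dim replicate 1, at 48.8%, against none in replicate 2, where Cebpd took 39.3%. The summed TPM of the 5 genes was 124.5 and 130.3 in CD34bright, 131 in both CD48bright libraries, 97.7 and 136 in CD41/CD9-negative cells, and 96.7 and 59.1 in CD48dim cells. Per length Cebpb was the least abundant member, at 0.744% to 4.0%, except in replicate 2 of CD41/CD9-negative and CD48dim cells, where Cebpe was lower.

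**Figure D3:**
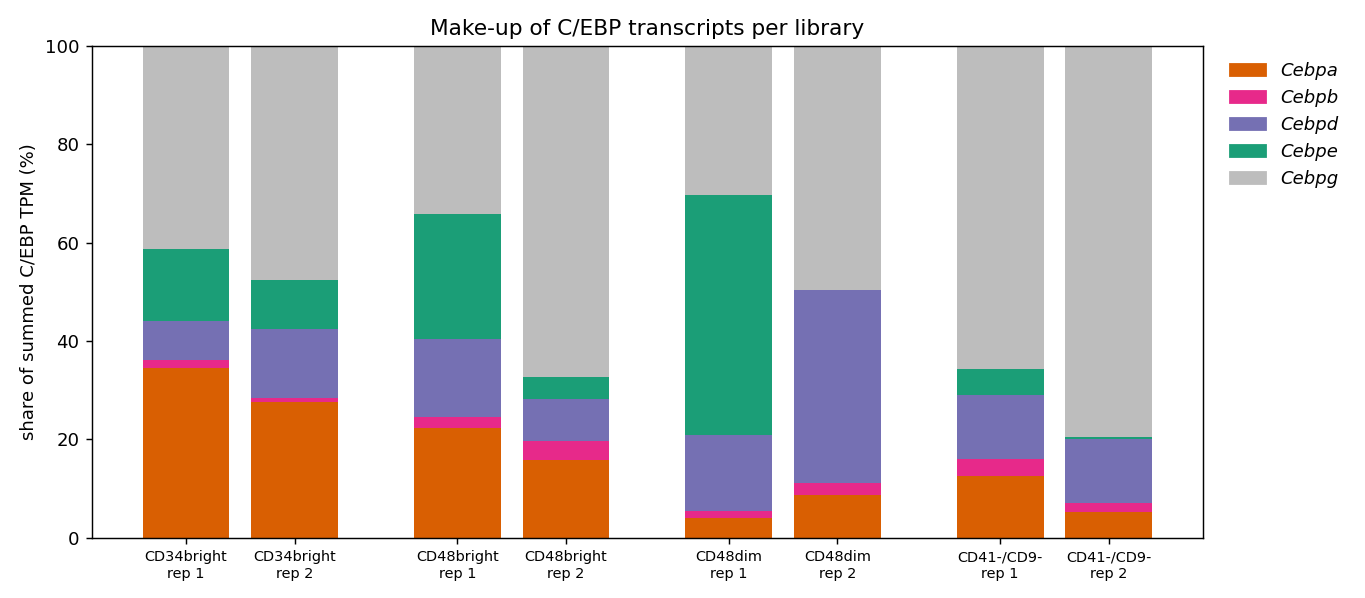
Share of each C/EBP gene in the summed TPM of the 5 genes (in %, stacked to 100) for each of the 8 libraries. The Cebpa share runs from 34.4% in CD34bright replicate 1 to 3.98% in CD48dim replicate 1, and Cebpe takes 48.8% of CD48dim replicate 1 and 0 of replicate 2.

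Spi1 (chromosome 2, 91082374 to 91115759), the PU.1 gene, was the most abundant of the 8 per length in every library, at 73.5 to 248 TPM. Its levels were 100.3 and 155 CPM in CD34bright cells, 91.7 and 54.2 CPM in CD48bright cells, 115 and 61.2 CPM in CD41/CD9-negative cells, and 57.8 and 31.3 CPM in CD48dim cells. CD34bright cells were above CD48bright and CD48dim cells in both libraries, CD41/CD9-negative cells were above CD48dim cells, and the other pairs overlapped. None of its differences was called (adjusted p = 0.325 among the 4 populations, edgeR).

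The largest Spi1 difference, CD34bright above CD48dim by 1.52 ± 0.48 on the log2 scale, had an adjusted p of 0.149 (edgeR) and an interval of 0.45 to 2.59. This difference was called with DESeq2 (1.51, adjusted p = 0.0378) and by edgeR with no filter on low counts (1.53, adjusted p = 0.0135). CD41/CD9-negative and CD48bright cells differed by 0.27 ± 0.47 (adjusted p = 1), with an interval of -0.78 to 1.31. Without CD48dim replicate 1 the difference among the populations was called (adjusted p = 0.0392), and without replicate 2 it was not (0.259).

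Gfi1 (chromosome 5, 107716655 to 107725805), the neutrophil-promoting repressor, was lowest in CD41/CD9-negative cells, at 17.1 and 24.4 CPM. It was read at 57.4 and 43.5 CPM in CD34bright cells, 108 and 51.5 CPM in CD48bright cells, and 86.4 and 37.5 CPM in CD48dim cells. Both CD41/CD9-negative libraries lay below all 6 others, and the other 3 populations overlapped one another. The adjusted p among the 4 populations was 0.225 (edgeR), and with no filter on low counts it was 0.00967, a call.

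CD41/CD9-negative cells lay 1.94 ± 0.52 below CD48bright cells in Gfi1 (adjusted p = 0.252, edgeR, interval -3.11 to -0.77). They lay 1.58 ± 0.52 below CD48dim cells (adjusted p = 0.135) and 1.28 ± 0.51 below CD34bright cells (adjusted p = 0.420). The difference from CD48dim cells was called with DESeq2 (-1.58, adjusted p = 0.0378) and by edgeR with no filter (-1.57, adjusted p = 0.0166). In the comparison with CD48bright cells edgeR called none of the 8 genes and 0.212% of all genes, 0.0835% as higher and 0.129% as lower. At an unadjusted p below 0.05, Cebpa, Gfi1 and Klf4 passed, as did 7.12% of all genes, and DESeq2 called 1 of the 8. Fits without CD48dim replicate 1, replicate 2 or both called the Gfi1 difference from CD48bright cells (adjusted p = 0.0130, 0.0104 and 0.0190), and the difference among the populations (0.0137, 0.0151 and 0.0325). With both CD48dim libraries kept, DESeq2 also called the Gfi1 difference from CD48bright cells (-1.924, adjusted p = 0.0219). So did edgeR with no filter on low counts (-1.945, adjusted p = 0.00485). What part the spread of the CD48dim pair had in these calls was not tested.

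Klf4 (chromosome 4, 55527137 to 55532475), the monocyte-promoting factor, was highest in the population where Gfi1 was lowest. It was read at 139 and 88.6 CPM in CD41/CD9-negative cells, 40.4 and 60.1 CPM in CD48bright cells, 15.0 and 26.4 CPM in CD34bright cells, and 10.4 and 16.5 CPM in CD48dim cells. CD41/CD9-negative and CD48bright cells were each separate from all others, and CD34bright overlapped CD48dim. The adjusted p among the 4 populations was 0.0234 (edgeR), and leaving out replicate 1 or 2 of CD41/CD9-negative cells gave 0.166 or 0.0798, no longer a call.

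CD41/CD9-negative cells had 8.49-fold the Klf4 level of CD48dim cells, 114 ± 35.7 against 13.5 ± 4.29 CPM. The log2 fold change was 3.09 ± 0.48 (adjusted p = 0.0102, edgeR; interval 2.0 to 4.17). This was the smallest adjusted p among the 48 pairwise tests of the 8 genes. It was lost only without CD41/CD9-negative replicate 1 (adjusted p = 0.0891, log2 fold change 2.75), among the alternatives run for it.

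CD34bright cells lay 2.46 ± 0.47 below CD41/CD9-negative cells in Klf4 (adjusted p = 0.0508, edgeR), just outside the threshold, in a comparison where none of the 8 genes and 0.842% of all genes were called. At an unadjusted p below 0.05, 3 of the 8 passed (9.91% of all genes), and DESeq2 called 2. With the replicate number as a block the adjusted p was 0.0217. CD48bright cells lay 1.91 ± 0.46 above CD48dim cells (adjusted p = 0.141), where again none of the 8 and 0.387% of all genes were called, 3 of the 8 passed unadjusted (14.6% of all genes), and DESeq2 called 3. The neighbours in the order were not separated after adjustment: CD41/CD9-negative against CD48bright gave 1.18 ± 0.45 (adjusted p = 0.541), CD34bright against CD48bright -1.28 ± 0.45 (adjusted p = 1), and CD34bright against CD48dim 0.63 ± 0.45 (adjusted p = 0.482).

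In CD34bright against CD48bright cells, 0 of the 8 genes and 0% of all genes were called by edgeR, where 262 genes (1.99%) had an unadjusted p below 0.05, among them Klf4. DESeq2 called 33 genes, none of them among the 8. The median log2 difference of the 8 genes in this comparison was -0.16, against -0.01 over all genes.

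**Figure D4:**
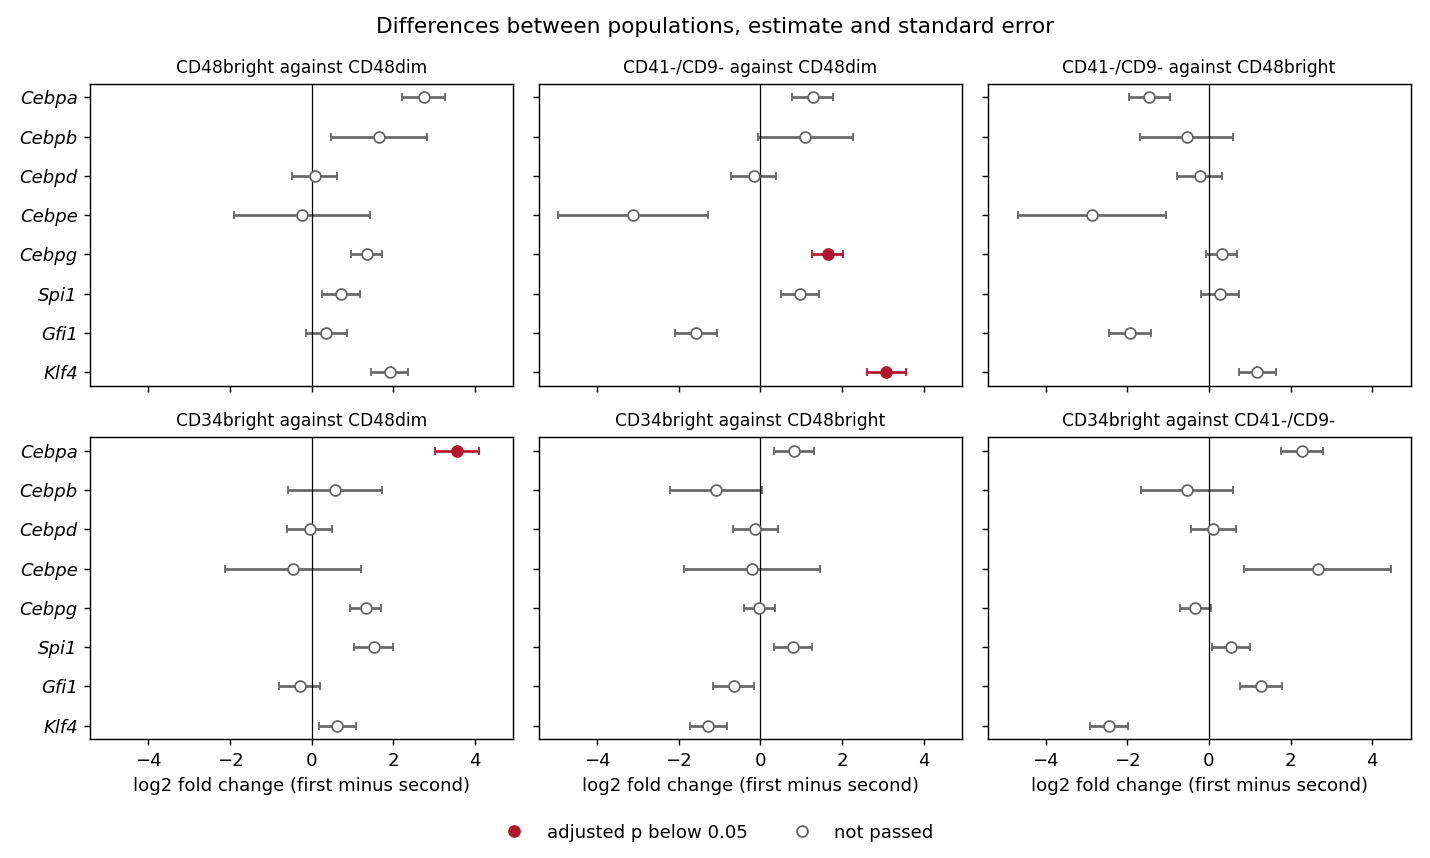
Log2 fold changes of the 8 genes in the 6 pairwise comparisons, as estimates with 1 standard error from the edgeR fit, filled where the adjusted p is below 0.05. The filled points are Cebpa in CD34bright against CD48dim (3.56) and Cebpg (1.65) and Klf4 (3.09) in CD41/CD9-negative against CD48dim, and the widest bars belong to Cebpe.

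Over the 8 genes, the median log2 difference from CD48dim cells was 1.03 in CD48bright, 1.04 in CD41/CD9-negative and 0.60 in CD34bright cells, against -0.03, -0.06 and -0.07 over all genes. The estimate was above CD48dim for 7 of the 8 genes in CD48bright cells (48.2% of all genes), 5 in CD41/CD9-negative cells (47.4%) and 5 in CD34bright cells (47.0%). Of the 7, Cebpd (0.07) and Gfi1 (0.36) changed sign with 1 library left out. Cebpa, Cebpg, Klf4 and, at low counts, Cebpb were above CD48dim in both libraries of CD48bright cells and in both of CD41/CD9-negative cells. The libraries of CD41/CD9-negative and CD48dim cells did not overlap for 6 of the 8 genes, and for 43.6% of all genes. The same was seen for 4 of the 8 between CD48bright and CD48dim cells (39.1% of all genes), for 5 between CD41/CD9-negative and CD48bright cells (40.1%), and for 3 between CD34bright and CD48dim cells (46.3%). It was seen for 4 between CD34bright and CD48bright cells (32%) and for 4 between CD34bright and CD41/CD9-negative cells (51%).

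Ratios within a library do not depend on library scaling, and 6 were compared among the 4 populations, as log2 of expected counts per effective length with 0.5 added to the counts. An exact permutation test over the 105 ways to part the libraries into pairs was used, two-sided by construction, with adjustment over the 6 ratios. Its smallest possible p is 0.00952. This test exchanges libraries freely and so ignores any pairing by replicate number. A second exact permutation test, chosen after seeing the data, removed the mean of each replicate number and exchanged libraries only within a number, in 24 ways, with a smallest possible p of 0.0417. None of the 6 ratios passed this exact permutation test after adjustment: Spi1 to Gata1 and Cebpa to Gata2 reached the smallest p, Cebpb to Cebpa and Gfi1 to Irf8 had p = 0.0833, and the adjusted p was 0.125 for all 4.

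The Spi1 to Gata1 ratio sets PU.1 against the erythroid factor GATA1. It was 4.33 and 6.13 in CD41/CD9-negative cells, 2.62 and 3.35 in CD34bright cells, 2.02 and 1.56 in CD48bright cells, and 1.3 and 0.70 in CD48dim cells, with no overlap between any populations. The highest and lowest means differed by 4.23 (exact permutation p = 0.00952, adjusted p = 0.0429). Gata1 itself lay at 8.66 and 1.29 CPM in CD41/CD9-negative cells and at 23.2 to 35.7 CPM in the other 6 libraries.

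The Cebpa to Gata2 ratio was -0.10 and -1.65 in CD41/CD9-negative cells, -1.85 and -2.95 in CD34bright cells, -2.87 and -3.32 in CD48bright cells, and -5.83 and -6.72 in CD48dim cells. CD34bright and CD48bright overlapped, and the highest and lowest means differed by 5.41 (exact permutation adjusted p = 0.0429). Gata2, a stem and mast cell lineage factor gene, lay in CD41/CD9-negative cells at 21.9 and 33.3 CPM and elsewhere at 312 to 646 CPM. Gata2 passed the test among the 4 populations by itself (adjusted p = 0.00966, edgeR).

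The Gfi1 to Irf8 ratio sets a neutrophil factor against a monocyte and dendritic cell factor. It was 3.90 and 6.89 in CD48dim cells, -1.20 and -1.59 in CD34bright cells, -0.55 and -1.90 in CD48bright cells, and -5.90 and -4.96 in CD41/CD9-negative cells. CD48dim and CD41/CD9-negative cells lay at opposite ends and apart from the others, by 10.8 between their means (exact permutation adjusted p = 0.0429). The value of 6.89 rests on 2 counts of Irf8 beside 273 of Gfi1, with a 95% counting interval (exact Clopper-Pearson) of 5.34 to 10.26, so the size of the difference of 10.8 is uncertain to that extent. Irf8 lay at 6.83 CPM and, below the 0.412 CPM of 3 counts, 0.275 CPM in CD48dim cells and at 1104 and 820.4 CPM in CD41/CD9-negative cells. Between these populations the edgeR log2 difference of Irf8 was 7.99 ± 1.02, and that of Gfi1 was -1.58 ± 0.52.

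The Cebpb to Cebpa ratio was -4.25 and -5.15 in CD34bright cells and -1.34 to -3.27 in the other 6 libraries, with 3.13 between the highest and lowest means (exact permutation adjusted p = 0.0429). Cebpb was thus below Cebpa per length in all 8 libraries. The Cebpa to Spi1 ratio ran from a mean of -2.21 in CD34bright to -4.19 in CD48dim cells (exact permutation adjusted p = 0.103). The ratio of Gfi1 to its relative Gfi1b, the erythroid and megakaryocytic counterpart, ran from 0.00 to -1.53 between the same populations (exact permutation adjusted p = 0.124). With deposited TPM in place of counts per length none of the 4 called ratios passed (exact permutation adjusted p = 0.0571). The 4 calls were also lost with each of 7 single libraries left out (adjusted p = 0.0571 to 0.129). Without CD34bright replicate 2, Cebpb to Cebpa was lost (adjusted p = 0.171) and the other 3 held.

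**Figure D5:**
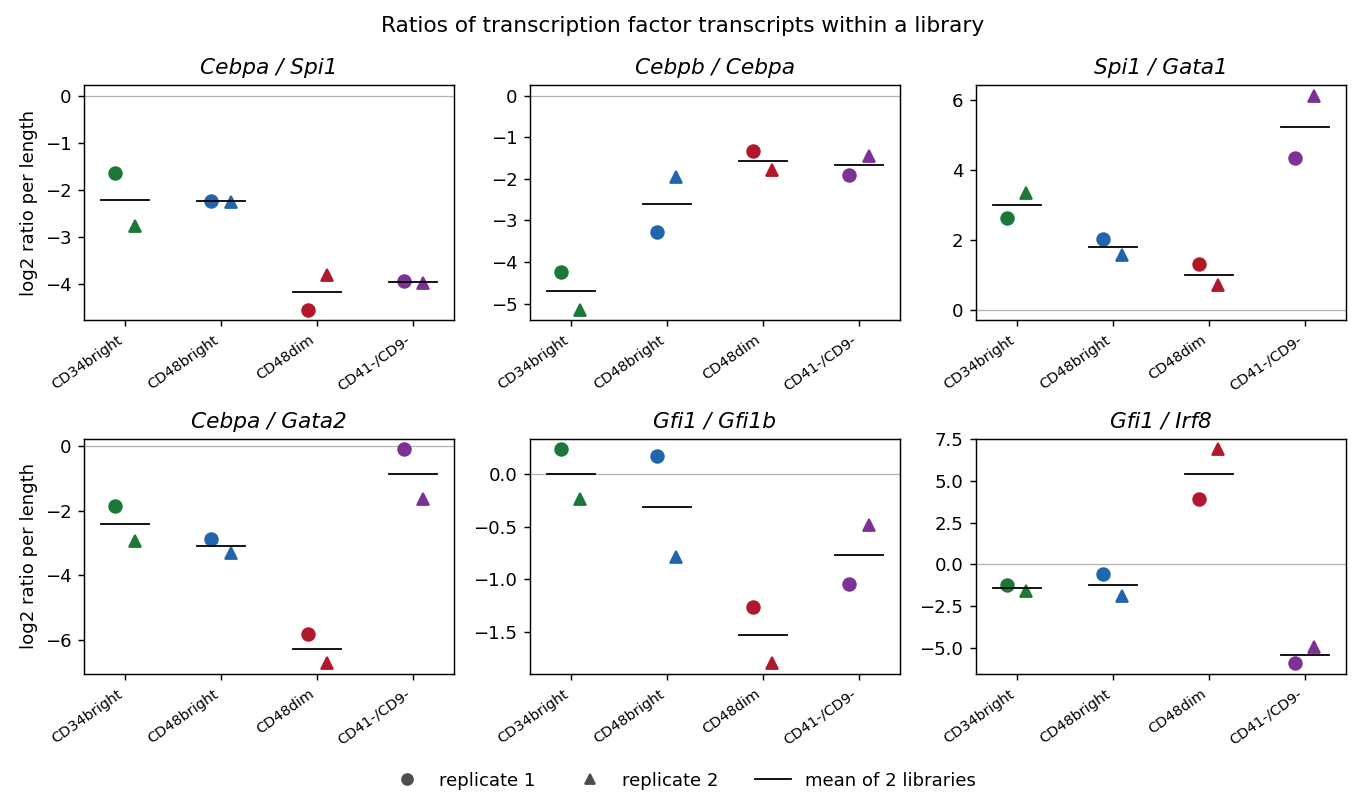
Log2 ratios per length of 6 pairs of transcription factor genes in each of the 8 libraries, with replicate 1 as circles, replicate 2 as triangles and a bar for the mean of 2. Gfi1 / Irf8 spans 6.89 in CD48dim replicate 2 to -5.90 in CD41/CD9-negative replicate 1, and Spi1 / Gata1 is highest in CD41/CD9-negative cells (4.33 and 6.13).

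Genes of pathways around these factors were counted from lists that were not chosen by how they moved here, though earlier results of these data were known. Of 8 granulocyte-monocyte growth factor receptor genes, 3 differed among the populations by the edgeR test: Il6st, the shared signalling chain of the interleukin-6 family, Csf1r, the M-CSF receptor and a PU.1 target, and Csf2rb2, a beta chain of the interleukin-3 receptor. Of all genes 2.44% differed, the background for the counts among the populations that follow. Csf1r lay at 153 and 113 CPM in CD41/CD9-negative cells, 60.4 and 62.4 CPM in CD34bright cells, 45.7 and 50.8 CPM in CD48bright cells, and 6.09 and 1.37 CPM in CD48dim cells (adjusted p = 0.0187). Csf1r was lowest in CD48dim cells. The mean of Spi1 was lowest there too, but was highest in CD34bright cells, and Spi1 was not called (adjusted p = 0.325, edgeR). Csf3r, the G-CSF receptor and a C/EBP target, lay at 74.6 to 269 CPM and was not called (adjusted p = 0.401).

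In CD41/CD9-negative against CD48dim cells, 4 of the 8 receptor genes were called as higher and none as lower, with a median log2 difference of 2.03. The estimate was above CD48dim for 6 of the 8. Csf3r was among those below (-1.10 ± 0.40, adjusted p = 0.167, edgeR). Over all genes 4.02% were called in that comparison, 1.98% as higher and 2.04% as lower, and the median was -0.06. The 4 receptor genes were Csf1r (5.10 ± 0.63), Il6st (3.42 ± 0.36), Csf2rb2 (2.48 ± 0.38) and Il6ra (2.31 ± 0.42), at edgeR adjusted p values of 0.00422, 0.00216, 0.00976 and 0.0190. Csf1r was also the 1 receptor gene called as higher in CD48bright (3.64 ± 0.59) and in CD34bright cells (3.99 ± 0.60) against CD48dim cells.

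Of 18 monocyte and dendritic cell genes, 7 differed among the populations, and 7 were called as higher in CD41/CD9-negative than in CD48dim cells. The median log2 difference there was 2.71 over the 18 (-0.06 over all genes). Ly86 lay at 281 and 214 CPM in CD41/CD9-negative cells and 1.47 and 6.32 CPM in CD48dim cells. F13a1 lay at 442 and 312 CPM against 28.4 and 30.8 CPM, and Cx3cr1, a chemokine receptor gene, at 41.5 and 45.4 CPM against 0.0734 and 0 CPM. Siglech, a plasmacytoid dendritic cell gene, lay at 199 and 151 CPM in CD41/CD9-negative cells and had 0 counts in both CD48dim libraries. The whole list summed to 3752 and 3360 CPM in CD41/CD9-negative cells and to 538 to 1492 CPM in the others. What part such cells had in the Klf4, Cebpg and Spi1 levels was not tested.

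Of 22 other basic leucine zipper genes tested, 1 differed among the populations. Nfil3 lay at 68.0 and 31.8 CPM in CD41/CD9-negative cells, 8.43 to 14.8 CPM in CD34bright and CD48bright cells, and 1.98 and 0.550 CPM in CD48dim cells (adjusted p = 0.0264, edgeR). In CD41/CD9-negative against CD48dim cells Nfil3 rose by 5.23 ± 0.78 and Hlf, a stem cell factor gene, fell by 2.48 ± 0.57 (adjusted p = 0.00857 and 0.0446). The median of the 22 in that comparison was -0.36, against -0.06 over all genes.

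Of 23 tested partners and opponents of these factors in other lineages, 5 differed among the populations. Gata2, Tal1 and Gfi1b, of the stem, erythroid and megakaryocytic lineages, fell in CD41/CD9-negative against CD48dim cells, by 4.22 ± 0.45, 2.85 ± 0.37 and 2.30 ± 0.37 on the log2 scale (adjusted p = 0.00213, 0.00503 and 0.0109, edgeR). In all, 4 of the 23 were called as lower there and none as higher, where 2.04% of all genes were called as lower and 1.98% as higher. By the estimate alone, called or not, 11 of the 23 were higher in CD41/CD9-negative cells. Ebf1, a B cell factor gene, lay at 31.9 and 42.8 CPM in CD41/CD9-negative cells, 6.53 and 12.1 CPM in CD48dim cells and 0.284 to 1.92 CPM in the other 4 libraries. Of 10 genes of GFI1 corepressors, Rcor2 alone differed, at 17.7 and 24.7 CPM in CD48dim cells and 1.42 to 10.8 CPM elsewhere (adjusted p = 0.0464).

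The genes most like each factor were read from the Pearson correlation of log2 CPM over the 8 libraries, among genes with a mean of at least 8 CPM. This is a description, since the libraries share populations and depth. Cebpa was most like Vwa9 (r = 0.993), Trnt1 and Cyb5b (both 0.981). Klf4 was most like Natd1 (0.982), Klf10 (0.977) and Raph1 (0.974), and Klf10 is a zinc finger gene of the same family. Cebpg was most like Cdc6 (0.987), a DNA replication licensing gene, Atp6v0e (0.984) and Ankrd10 (0.978).

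Spi1 was most like H2afx, Fxyd5 (both 0.983) and Crcp (0.979), and Gfi1 most like Scin (0.971), Ebna1bp2 (0.961) and Tusc2 (0.953). Cebpe was most like Gemin4 (0.991), Stip1 (0.986) and Dctn1 (0.981). Cebpb was most like Helb (0.936), Smdt1 (0.935) and Actr8 (0.909). Cebpd, the most even gene, had the weakest neighbours, Slco4a1 (0.885), Pgam5 (0.877) and Tshz1 (0.791). Among the 8 factors themselves, the closest pair was Cebpa and Spi1 (r = 0.75), and the most opposed was Gfi1 and Klf4 (r = -0.65).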

How the data were processed

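Total RNA was amplified to cDNA before library preparation, and the libraries carry no strand information, per the labels' protocols. The deposited tables hold expected counts per gene, TPM and effective lengths, per the file headers. Per the submitters' processing notes, the tools included STAR 2.7.2a, RSEM 1.3.2 and edgeR 3.30.3, with build mm10, while the annotation release was not given in the sources used here. A smaller deposited table per library repeated the expected counts of 7 of the 8 genes (not Cebpb), with no difference.

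Expected counts were rounded (1.52% to 2.20% of the genes per library were not whole). Genes were filtered with filterByExpr of edgeR 4.0.16 (R 4.3.3), which kept 13177 of 24411 genes, and libraries were scaled by TMM. Low-abundance genes carry the most counting error, and totals of 7237585 to 20632001 counts put the limit of a count of 0 at 0.155 to 0.412 CPM. All 8 libraries entered 1 quasi-likelihood fit with a mean per population (4 residual and 5.46 prior degrees of freedom, biological coefficient of variation 49.8%), with calls below 0.05 after Benjamini-Hochberg adjustment. Standard errors are the log2 fold change divided by the square root of F. The test was first checked on simulated data. Ratios used exact permutation, and a form within replicate numbers was added after seeing the data.

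The replicate 2 minus replicate 1 differences correlated between populations at 0.112 to 0.222 over 13177 genes, for all 6 pairs of populations. On this ground the replicate numbers were treated as a pairing in the block, since the labels name no shared mouse or day. Replicate 2 also had fewer counts, more Malat1 and a smaller ribosomal protein share in all 4 populations. Whether the correlations reflect that or a shared origin was not tested. The fit without the block was the main one.

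The genes, 9 lists (127 entries), rules and tests were chosen with earlier results of these data known. The text names all 8 genes, for each the 3 tested genes of at least 8 CPM with the highest correlation, up to 4 called genes per list with the smallest p among the 4 populations, the genes of the ratios, and, chosen after their values were seen, Csf3r, Il6ra, Elane and Hlf. Alternatives were DESeq2 1.42.0, DESeq2 size factors, limma-voom (limma 3.58.1), no filter, an effective length offset, the replicate block, the compared libraries alone, each library left out, both CD48dim libraries left out, and deposited TPM for ratios. Positions and promoters are from RefSeq on GRCm38.p6.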

Additional observations from a re-analysis of the deposited data

How the results depend on the processing

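The 864 values of the single genes under the alternatives include those among the 4 populations, which have no direction. Of the 864, 756 kept their side of the threshold, and their direction where they had one. A further 57 were called only under the alternative and 20 lost their call, without a change of sign. The other 31, all of pairwise comparisons, changed sign. The causes were not tested beyond what each alternative leaves out or pools. Among the 4 populations, 2 of the 8 genes were called, 5 with no filter on low counts, and 0 to 6 with single libraries left out. In CD48bright against CD48dim, 0 became 3 with DESeq2, 3 with no filter, 1 with the replicate block (Cebpa) and 0 to 4 with single libraries left out. In CD41/CD9-negative against CD48dim, 2 became 4 with no filter, 1 with the compared libraries alone and 0 to 4 with single libraries left out. In CD41/CD9-negative against CD48bright, 0 became 1, Gfi1, with DESeq2, with no filter, with the compared libraries alone and without both CD48dim libraries, and was 0 to 1 with single libraries left out. In CD34bright against CD48dim, 1 became 3 with DESeq2, 0 with limma-voom, 3 with no filter, 0 with the compared libraries alone and 0 to 4 with single libraries left out. In CD34bright against CD48bright it was 0 throughout. In CD34bright against CD41/CD9-negative, 0 became 2 with DESeq2, 1 with limma-voom, 2 with no filter, 2 with the replicate block (Cebpa and Klf4), 4 with the compared libraries alone, 2 without both CD48dim libraries and 0 to 2 with single libraries left out. Among the 4 populations the highest count, 6, came without CD48dim replicate 1, where over all genes 3399 were called, against 322 in the fit reported. The replicate block raised that count to 764 and changed no other call of the 8 genes. The replicate block also turned the sign of Cebpe, which was not called, to 0.57 in CD48bright against CD48dim, 1.32 in CD34bright against CD48dim and 0.75 in CD34bright against CD48bright, where limma-voom gave 2.08, 2.18 and 0.10. With limma-voom Cebpg in CD34bright against CD48bright was 0.021.

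The other changes of sign came with single libraries left out and none was of a value called in the fit reported. Cebpd ranged from -0.22 to 0.40 in CD34bright against CD41/CD9-negative, -0.60 to 0.61 in CD34bright against CD48bright, -0.34 to 0.25 in CD34bright against CD48dim, -0.71 to 0.50 in CD41/CD9-negative against CD48bright, -0.32 to 0.013 in CD41/CD9-negative against CD48dim and -0.65 to 0.56 in CD48bright against CD48dim. Cebpe ranged from -1.01 to 1.78 in CD34bright against CD48bright and, against CD48dim, from -1.44 to 10.11 in CD34bright, -5.37 to 7.45 in CD41/CD9-negative and -2.23 to 10.32 in CD48bright, the upper values resting on the CD48dim library with 0 counts. Of these, 10.11 and 10.32 were called (adjusted p = 0.0144 and 0.0158, edgeR without CD48dim replicate 1). Cebpb ranged from -1.44 to 0.047 in CD34bright against CD41/CD9-negative and -0.33 to 1.18 in CD34bright against CD48dim. Cebpg ranged from -0.59 to 0.0061 in CD34bright against CD41/CD9-negative, -0.32 to 0.35 in CD34bright against CD48bright and -0.026 to 0.68 in CD41/CD9-negative against CD48bright. Gfi1 ranged from -0.77 to 0.44 in CD34bright against CD48dim and -0.26 to 1.10 in CD48bright against CD48dim, and Spi1 from -0.26 to 0.69 in CD41/CD9-negative against CD48bright.

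With deposited TPM the ratios whose call was lost differed by 3.07 (Cebpb to Cebpa), 4.21 (Spi1 to Gata1), 5.39 (Cebpa to Gata2) and 10.7 (Gfi1 to Irf8). With single libraries left out they ranged from 2.68 to 3.58, 3.33 to 5.13, 4.63 to 6.18 and 9.33 to 12.3, and Cebpa to Spi1 from 1.41 to 2.55. With the replicate block, a permutation within replicate numbers added after seeing the data, the same 4 calls were lost (3.13, 4.23, 5.41 and 10.8, exact permutation adjusted p = 0.125). That permutation could call a ratio only if all 6 reached its smallest p. Cebpa to Spi1 passed without CD34bright replicate 2 (2.55, adjusted p = 0.0429, exact permutation). Depth limits Cebpb (5 to 45 counts a library) and Cebpe in CD48dim replicate 2 and CD41/CD9-negative replicate 2 (0 and 4 counts). A fit of the compared libraries alone could not be made for the difference among the 4 populations.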
